A study of Caenorhabditis elegans with 2 samples.

Results

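Small nucleolar RNA (snoRNA) genes were among the places of highest signal when the F10E7.11 protein was mapped on Caenorhabditis elegans chromatin. The genes described are all 346 nuclear genes of biotype snoRNA in the Ensembl annotation of assembly WBcel235 (ce11), of 46890 nuclear genes in all. A region of the authors' pooled list was taken as lying at a snoRNA gene where its summit was within 250 bp of the gene. This gave 180 of 18286 pooled candidate regions, at 159 of the 346 genes. Of the 575 peaks that passed the authors' irreproducible discovery rate (IDR) threshold, 50 lay at snoRNA genes, and 50 genes had at least 1 of them. The neighbours C51F7.3 and C51F7.4 shared 1 peak, and C08D8.3 had 2.

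The data were chromatin immunoprecipitation with sequencing (ChIP-seq) of whole worms of strain OP658, unc-119(tm4063) III; wgIs658, whose transgene makes F10E7.11 with a C-terminal GFP-FLAG tag. F10E7.11 is annotated by RefSeq as an ELM2 domain-containing protein. Mixed-sex young adults were taken 63 hours after synchronisation as starved L1 larvae, chromatin was sonicated, and an anti-GFP antibody was used. All samples form 1 group of 2 biological replicates, with no second genotype or treatment, so the transgene and the unc-119 allele are shared by all of them and the values below are descriptions within this strain. The signal mixes all tissues of the worm, and a tagged transgene stands in for the endogenous protein.

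SnoRNAs are short noncoding RNAs that guide the chemical modification of other RNAs, mainly ribosomal RNA. Box C/D snoRNAs guide ribose methylation and H/ACA snoRNAs guide the conversion of uridine to pseudouridine. Many lie inside introns of protein-coding host genes and can be released from the spliced intron, while others are transcribed from promoters of their own. Transfer RNA (tRNA) genes, another class of small RNA gene, carry promoter elements called the A box and the B box inside the transcribed sequence, where factors of RNA polymerase III bind.

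Sequences just before the snoRNA genes are shown for 10 genes of the IDR list, because most strong summits lay there. Each runs 5′ to 3′ on the strand of the snoRNA gene and holds the 100 bases before the annotated 5′ end and the first 20 bases of the gene, from the WBcel235 reference. Capitals mark matches to TGGCNNAG, called A box letters below, to GTTCNANNC, called B box letters, and to CGNAACCCG, called element letters. These 3 patterns were written down after the sequences had been seen, so their counts are descriptions. The first 4 genes had A and B box letters, the next had B box letters and no A box letters, T06C12.16 had A box letters alone, the next 3 had element letters, and B0334.12 had none. Only exact matches were counted, so genes said to lack a pattern can hold near matches. T06C12.16, for example, has gttcgatgt before the gene, which differs from the B box letters by a base. C07A9.14 was chosen with its values known.
T03F7.8 (chrV:11314158-11314277, plus strand): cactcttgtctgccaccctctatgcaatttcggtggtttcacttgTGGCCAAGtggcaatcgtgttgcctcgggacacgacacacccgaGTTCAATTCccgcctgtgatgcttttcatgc
W03C9.9 (chrII:11960798-11960917, plus strand): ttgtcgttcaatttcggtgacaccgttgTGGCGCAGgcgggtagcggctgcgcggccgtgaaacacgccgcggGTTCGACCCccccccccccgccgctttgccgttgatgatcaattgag
Y43F8C.22 (chrV:19643168-19643287, minus strand): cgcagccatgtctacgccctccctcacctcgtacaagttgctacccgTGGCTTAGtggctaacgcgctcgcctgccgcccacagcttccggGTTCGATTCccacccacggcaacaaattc
F32E10.10 (chrIV:7574022-7574141, plus strand): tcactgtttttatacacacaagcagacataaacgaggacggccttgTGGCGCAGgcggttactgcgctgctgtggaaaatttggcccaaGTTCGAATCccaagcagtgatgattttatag
C51F7.3 (chrV:12303608-12303727, plus strand): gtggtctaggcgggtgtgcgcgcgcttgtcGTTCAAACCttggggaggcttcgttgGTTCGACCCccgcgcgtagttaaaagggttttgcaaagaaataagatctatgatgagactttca
T06C12.16 (chrV:15873907-15874026, minus strand): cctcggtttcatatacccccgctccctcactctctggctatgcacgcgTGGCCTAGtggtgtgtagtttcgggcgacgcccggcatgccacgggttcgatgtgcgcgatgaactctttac
ZK994.7 (chrV:8500479-8500598, plus strand): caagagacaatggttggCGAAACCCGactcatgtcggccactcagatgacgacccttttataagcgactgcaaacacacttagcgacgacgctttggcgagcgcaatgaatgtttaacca
Y53F4B.47 (chrII:15025874-15025993, minus strand): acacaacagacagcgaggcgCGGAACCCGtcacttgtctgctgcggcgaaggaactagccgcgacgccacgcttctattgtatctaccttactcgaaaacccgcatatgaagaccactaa
C07A9.14 (chrIII:9717280-9717399, plus strand): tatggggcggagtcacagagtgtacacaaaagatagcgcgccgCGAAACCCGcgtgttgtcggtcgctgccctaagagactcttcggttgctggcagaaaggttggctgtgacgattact
B0334.12 (chrII:11484583-11484702, plus strand): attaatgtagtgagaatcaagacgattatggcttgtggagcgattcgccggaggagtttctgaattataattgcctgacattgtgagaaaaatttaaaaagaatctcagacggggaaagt

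At 13 of the 346 genes the 100 bases before the 5′ end held both A and B box letters on the sense strand. In all 13 the A box letters came first, and the starts of the pair were 43 to 52 bp apart, with a median of 44. Of these 13 genes, 10 had an IDR peak and 12 had a pooled region. Genes with B box letters alone had an IDR peak at 8 of 20, genes with A box letters alone at 5 of 16 and genes with element letters at 7 of 21. Where none of the 3 patterns was found, 20 of 276 genes (7.25%) had one. For comparison, 1.85% of all nuclear genes had an IDR summit within 250 bp.

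The B box letters stood before 18 of 50 snoRNA genes with an IDR peak (36%), 8 of 109 genes with other pooled regions (7.34%) and 7 of 187 with no region (3.74%). They occurred in 1.43% of the same 100-base stretches before 19973 protein-coding genes. The A box letters stood before 15 of 50 (30%), 9 of 109 (8.26%) and 5 of 187 (2.67%), against 0.686% of protein-coding genes. The stricter B box word GTTCGANNC, whose matches are all matches of the B box letters too, was present at 12 of 50 (24%), 3 of 109 (2.75%) and 2 of 187 (1.07%), against 0.205%. Both box patterns had their highest share at the genes with IDR peaks. As both were written down after these sequences had been seen, that order is no independent support. The stricter word GTTCGANNC was set in the design, with earlier results of these data known. A match of letters is a description and not a binding site.

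The element letters showed a different distribution. They stood before 7 of 50 genes with an IDR peak (14%), 11 of 109 genes with other regions (10.1%) and 3 of 187 with no region (1.60%), against 0.0401% of protein-coding genes. None of the 21 genes with element letters also had A or B box letters, and 18 of the 21 had a pooled region. Outside the IDR list the strongest regions at such genes had pooled signal values of 148 at smy-2, inside C33A12.3, 142 at F25H2.15 and 136 at F47G4.9, which were named after their values were seen. The words TATAAA and ACGCAG were less frequent at the IDR genes than the boxes. TATAAA was found at 6% of genes with an IDR peak, 5.50% with other regions and 6.95% with none, against 12.7% of protein-coding genes, and ACGCAG at 4%, 3.67% and 1.60%, against 1.18%.

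In windows of 100 bp centred on the summits and read on both strands, the B box letters were present in 32% of the 50 IDR peaks at snoRNA genes and 6.92% of the 130 other regions there. They were present in 58 of the 525 IDR peaks elsewhere (11.0%). Of the 440 IDR peaks more than 250 bp from any tRNA or snoRNA gene, 21 held them (4.77%), as did 4.56% of all pooled regions. Most of the 58 thus lay within 250 bp of a tRNA gene, so the B box letters were not particular to IDR peaks at snoRNA genes. The A box letters were present in 34%, 5.38%, 8%, 6.59% and 4.59% of the same 5 sets, and the element letters in 4%, 3.85%, 0%, 0% and 0.246%. ACGCAG was present in 8%, 5.38%, 11.6%, 11.1% and 3.89% of them, so its share was higher at the IDR peaks elsewhere than at those of snoRNA genes. TATAAA was present in 8%, 6.92%, 6.10%, 6.14% and 7.41%. The G+C content of these windows was 53.1% ± 6.99 (SD, n = 50 regions) at the IDR peaks of snoRNA genes. It was 44.1% ± 9.47 (n = 130) at the other regions there, 44.9% ± 9.51 (n = 525) at the other IDR peaks and 41.6% ± 9.29 (n = 18286) over all pooled regions. G+C content therefore moved with the IDR peaks at these genes, and its part in the motif counts was not tested.

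Positions of the letters and of the summits are set side by side in the map of 30 genes. At genes with an IDR peak the A box letters started at a median of −58 bp from the snoRNA 5′ end (range −72 to −52, n = 15) and the B box letters at −14 bp (−44 to −9, n = 18), taking the match nearest the gene where there were several. The element letters started at −61 bp (−83 to −57, n = 7). By their medians, summits lay between the boxes. The median summit was 12 bp downstream of the middle of the A box letters and 22.5 bp upstream of the middle of the B box letters, with ranges of −31 to 63 bp and −76 to 52 bp. The summit stood further from the element letters, at a median of 70 bp downstream of their middle (range 25 to 282).

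**Figure D1:**
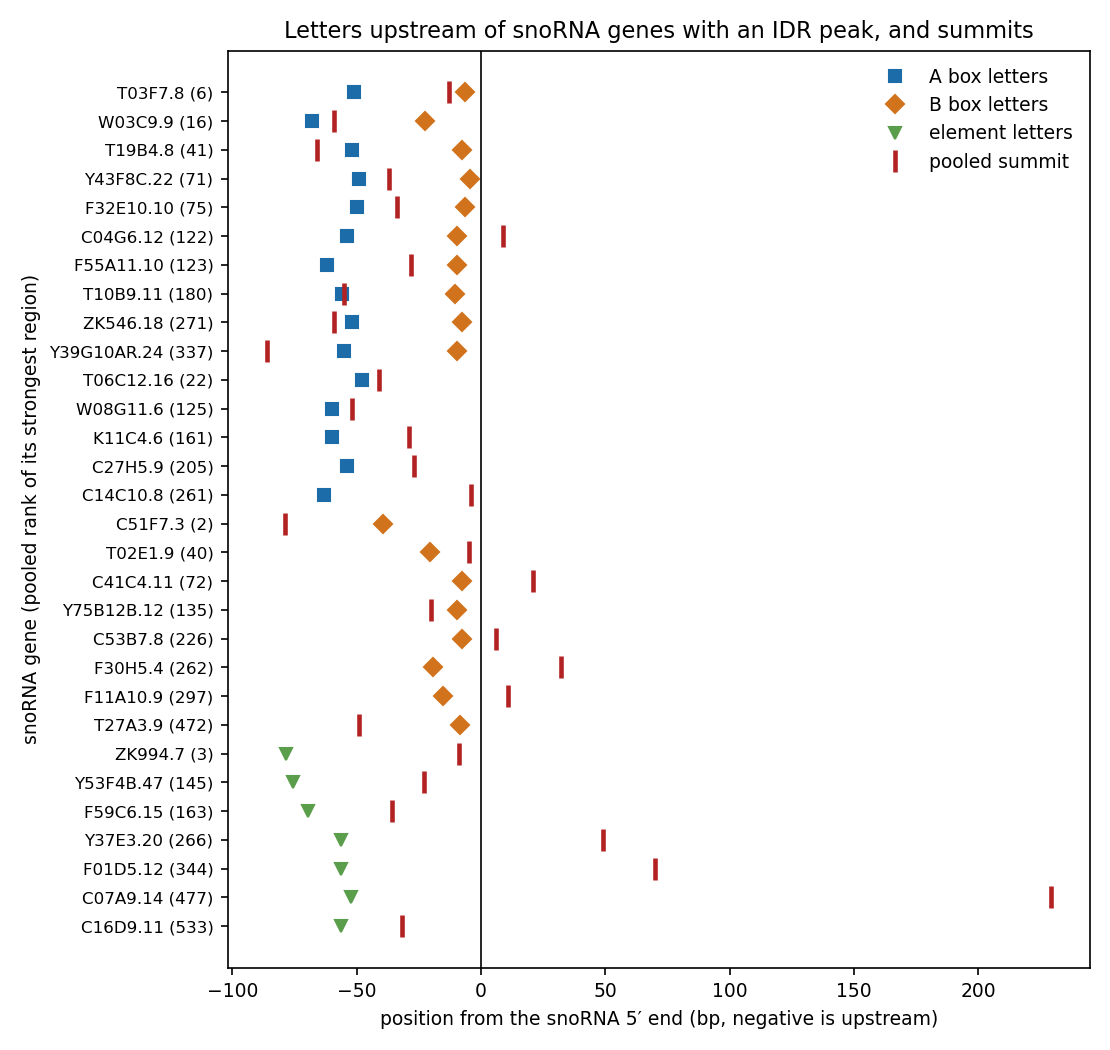
Position in bp from the snoRNA 5′ end of the A box letters, B box letters and element letters (middle of the match nearest the gene) and of the pooled summit, for the 30 snoRNA genes with an IDR peak and at least 1 of these patterns; the number beside each gene is its pooled rank. The plotted A box letters started at −72 to −52 bp and the plotted B box letters at −44 to −9 bp, and the summit marks of most genes lie left of the 5′ end.

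Signal ranks of the snoRNA regions were spread over the whole pooled list, and were most frequent at the top. Their median rank was 3119.5 of 18286, and 3 were among the 10 strongest regions, 15 among the 100 strongest and 36 below the middle of the list. By rank, snoRNA regions made up 15% of ranks 1 to 100, 12% of ranks 101 to 300, 4% of ranks 301 to 575 and 1.82% of ranks 576 to 2000. Beyond that they made up 1.13% of ranks 2001 to 5000, 0.78% of ranks 5001 to 10000 and 0.374% of the rest. Of the 180 regions, 27.8% were in the IDR list, against 3.14% of all pooled regions. A q-value under 0.05 was given by the authors to 60 of the 180, against 5.45% of all regions.

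Counted by gene, an IDR peak was found at 14.5% of snoRNA genes (50 of 346, exact Clopper-Pearson 95% interval 10.9 to 18.6), where the interval covers the number of genes only. The same share was 15.5% of tRNA genes, 10.1% of small nuclear RNA genes, 1.92% of miRNA genes and 0.0325% of piRNA genes. At the 5′ ends of protein-coding genes it was 0.726%. The IDR peaks at snoRNA genes had a median pooled signal value of 216, against 184 for the 525 other IDR peaks. Of the 50, 0 had a summit within 250 bp of a tRNA, small nuclear RNA, ribosomal RNA or miRNA gene, and piRNA genes were not checked. A protein-coding promoter (500 bp upstream to 100 bp downstream of a 5′ end) held 7 of the summits. Within 250 bp of a noncoding RNA gene of another kind or a pseudogene lay 17. Of the 130 other pooled regions at snoRNA genes, 20 lay in such a promoter and 29 near such a noncoding gene or pseudogene. The same counts over all pooled regions were not made.

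Replicates were compared by rank, since the signal values of separate lists are on different scales and the pooled list was made from both. In replicate 1, 166 regions lay at snoRNA genes with a median rank of 2719.5 of 18116, and 47 were among its 575 strongest regions, against a background of 3.17% of its regions. In replicate 2, 193 regions lay there with a median rank of 3873 of 25275, and 40 were among its 575 strongest, against 2.27%. Among the 10 strongest regions, 3 were at snoRNA genes in each replicate, and among the 100 strongest, 16 in each.

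All 50 IDR peaks at snoRNA genes were matched by a candidate region in both replicates, as were 523 of the other 525. The second peak of C08D8.3 was matched to the same replicate regions as its first. Their median rank was 169 in replicate 1 and 213.5 in replicate 2, and 30 (60%) were among the 575 strongest of both, against 50.1% of the other 525 IDR peaks. The replicates nevertheless ordered the 50 peaks differently, with a Spearman correlation of ranks of 0.321 across the 50 regions, which share libraries and are not replicates. The replicate summits were at a median of 1 bp from the pooled summit in replicate 1 and 16 bp in replicate 2. Replicate 2 placed 3 of the peaks beyond rank 5000: F55A11.10 at 14526, T27A3.9 at 7743 and M7.15 at 19572, whose replicate 1 ranks were 47, 311 and 303. T27A3.9 was named after its values were seen.

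**Figure D2:**
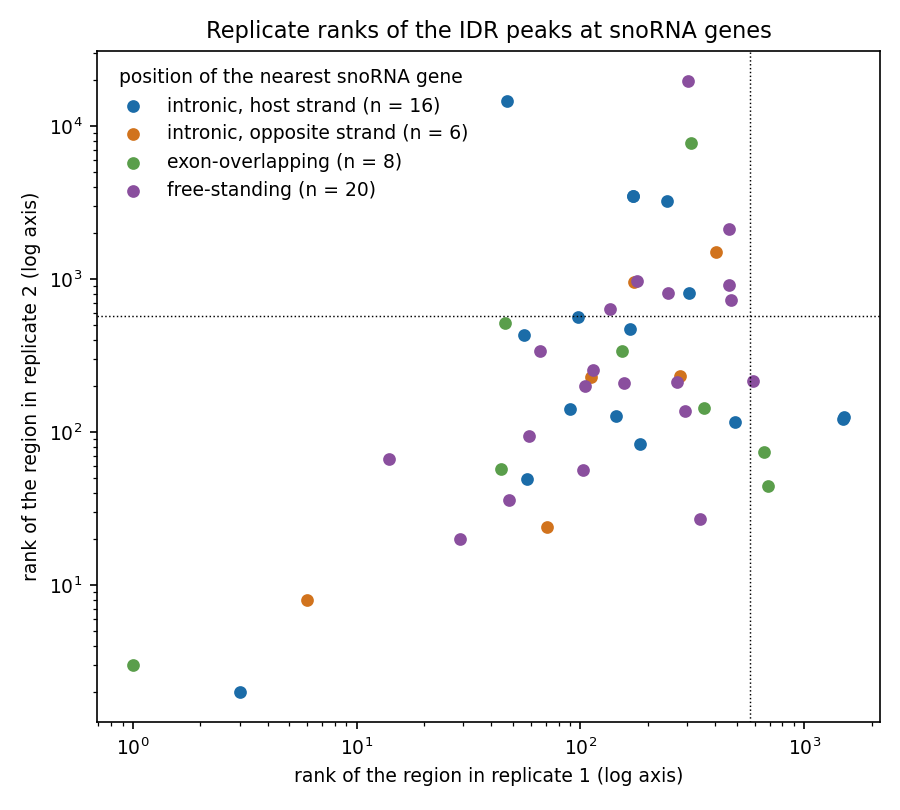
Rank of each of the 50 IDR peaks at snoRNA genes in the list of replicate 1 (x, log axis) and replicate 2 (y, log axis), coloured by the position of the nearest snoRNA gene; dotted lines mark rank 575. Both ranks are at or under 575 for 30 of the 50 points, and 3 points lie above rank 5000 in replicate 2.

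Summits of the strong regions gathered just upstream of the snoRNA gene. Of the 50 IDR peaks, 37 had the summit upstream of the 5′ end, 10 inside the gene and 3 downstream of it. The 100 bp before the 5′ end held 35 of the 50 summits (70%), although this stretch is 16.6% of the sequence within reach. The median summit position was −35 bp (quartiles −51.5 and 3.5, range −116 to 229). The other 130 regions had 46 summits upstream, 31 inside and 53 downstream, with 26 (20%) in those 100 bp, where 15.7% of the reach lies, and a median of 73.5 bp. The strong summits were thus mostly upstream, and the share of the weaker ones in that stretch was near its share of the sequence.

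Both replicates showed the same placement when taken alone. Among the snoRNA regions in the 575 strongest of replicate 1, 31 of 47 summits (66.0%) lay within 100 bp upstream, with a median of −41 bp, against 20.2% of its other snoRNA regions. In replicate 2 it was 27 of 40 (67.5%), with a median of −30.5 bp, against 22.9%. Across the pooled list the share in the 100 bp upstream was 11 of 15 at ranks 1 to 100, 18 of 24 at ranks 101 to 300, 6 of 11 at ranks 301 to 575 and 7 of 26 at ranks 576 to 2000.

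**Figure D3:**
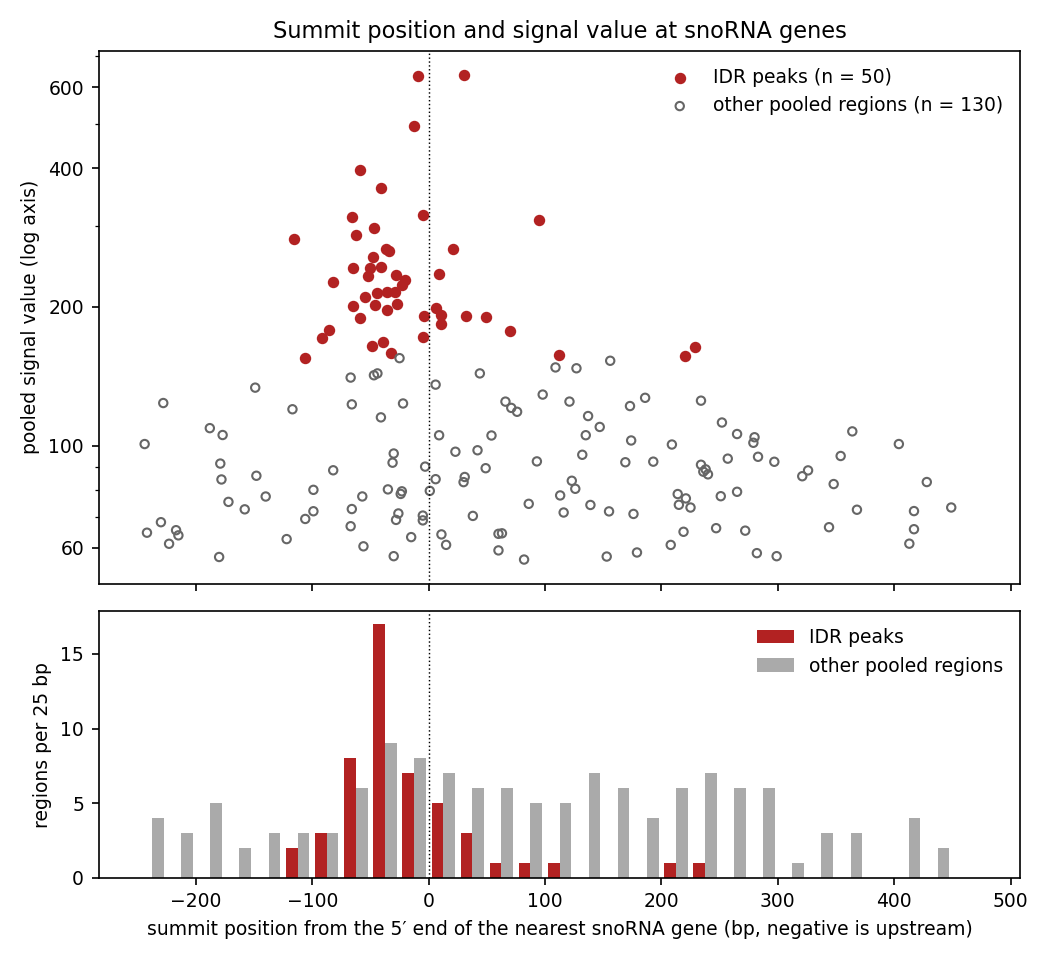
Summit position from the 5′ end of the nearest snoRNA gene (x, bp, negative upstream) against pooled signal value (upper panel, log axis) and as counts per 25 bp (lower panel), for the 50 IDR peaks and the 130 other pooled regions. The IDR peaks pile up in the 100 bp upstream (35 of 50), and the other regions spread over the whole reach.

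Position relative to protein-coding genes divided the 346 genes into 142 in an intron on the host strand, 27 in an intron on the opposite strand, 53 that overlap an exon of a protein-coding gene, and 124 free-standing genes. Of the 53, 46 lie wholly inside that gene and 7 reach past its end, among them 4 of the 8 with an IDR peak. An IDR peak was found at 16 of 142 host-strand intronic genes (11.3%, exact interval 6.58 to 17.7), 6 of 27 opposite-strand intronic genes (22.2%, 8.62 to 42.3), 8 of 53 exon-overlapping genes (15.1%, 6.75 to 27.6) and 20 of 124 free-standing genes (16.1%, 10.1 to 23.8). The 4 intervals overlap, and a difference between the classes was not tested. All 4 were above the 1.85% of nuclear genes. Among the 575 strongest regions of replicate 1, the same classes had 15, 6, 6 and 20 genes, and in replicate 2 they had 14, 4, 7 and 15.

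**Figure D4:**
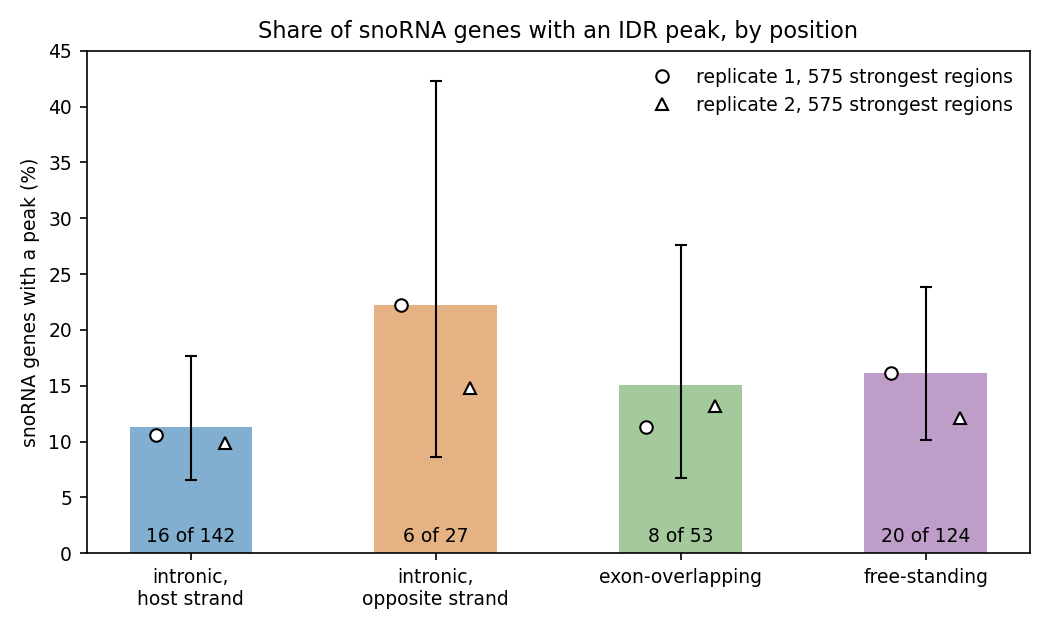
Percent of snoRNA genes with an IDR peak in each position class (bars, with exact Clopper-Pearson 95% intervals), and percent with a region among the 575 strongest of replicate 1 (circles) and replicate 2 (triangles). The bars run from 11.3% to 22.2%, and their intervals overlap.

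Where a pooled region was present, its median rank was 1325.5 at opposite-strand intronic genes (n = 16), 1744.5 at free-standing genes (n = 56), 1947 at exon-overlapping genes (n = 22) and 3887 at host-strand intronic genes (n = 65). The median summit position of the IDR peaks was −45 bp in the exon-overlapping class, −40 bp in the free-standing class, −28.5 bp in the host-strand intronic class and −2 bp in the opposite-strand intronic class, for 8, 20, 16 and 6 peaks. The patterns in the upstream letters were found in each class: at 10 of the 16 host-strand intronic genes with an IDR peak, 4 of the 6 opposite-strand ones, 4 of the 8 exon-overlapping ones and 12 of the 20 free-standing ones.

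Among host-strand intronic genes, the strongest region lay at C51F7.3 in frm-7, which encodes a FERM domain protein. Its peak (chrV:12303522-12303725) had a pooled signal value of 638 (rank 2), with 463 in replicate 1 (rank 1) and 181 in replicate 2 (rank 3). The summit was inside the exon-overlapping snoRNA gene C51F7.4, 30 bp from its 5′ end and 79 bp before that of C51F7.3, and the genes are separated by 15 bp. The B box letters occurred at 2 places in the 100 bases before C51F7.3. Most of this stretch lies in C51F7.4, and both places are inside that gene. ZK994.7 in pxn-1, the gene of a peroxidasin, followed with a pooled value of 633 (rank 3, chrV:8500434-8500650), 440 in replicate 1 (rank 3) and 193 in replicate 2 (rank 2), and its summit was 9 bp before the 5′ end. These 2 peaks were in the first 3 of every list and were narrower, at 204 and 217 bp, than the usual 436 bp.

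The next host-strand gene was D1046.6, with an ACA tail, in cfim-2, a gene of messenger RNA 3′ end cleavage. It had 297 in the pooled list (rank 51), 211 in replicate 1 (rank 58) and 89.8 in replicate 2 (rank 49), with the summit 47 bp upstream. Y43F8C.22, in Y43F8C.7, had 268 (rank 71), with ranks 56 and 432 in replicates 1 and 2, and C27H6.5, in the synaptic vesicle gene unc-41, had 257 (rank 89), with ranks 90 and 141. Others among the 25 strongest were C05D2.15 in madf-11 (rank 110), F55A11.10 in F55A11.6 (123), W08G11.6 in W08G11.3 (125), C10C6.8 in the ATPase gene catp-8 (143) and K11C4.6 in the beta-spectrin gene unc-70 (161). F55A11.10 ranked 47 in replicate 1 and 14526 in replicate 2, and the other 4 ranked 98 to 184 in replicate 1 and 83 to 564 in replicate 2.

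Opposite-strand intronic genes were led by T03F7.8 in cutl-18, a cuticlin-like gene. It had 495 in the pooled list (rank 6), 349 in replicate 1 (rank 6) and 145 in replicate 2 (rank 8), with the summit 13 bp upstream. B0334.12 in twk-5, of the TWK potassium channel family, had 308 (rank 48), 203 (rank 71) and 105 (rank 24) in the same 3 lists, and its summit was 95 bp downstream of the 5′ end, past the end of the gene. C04G6.12 in the kinase gene mpk-2 had 235 (rank 122), 178 (rank 112) and 62.1 (rank 228), with the summit 9 bp inside.

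Free-standing genes were led by W03C9.9, which carries box C and D letters. It had 397 in the pooled list (rank 16), 313 in replicate 1 (rank 14) and 84.4 in replicate 2 (rank 67), and the summit was 59 bp upstream. T06C12.16 had 363 (rank 22), 248 (rank 29) and 109.7 (rank 20), with the summit 41 bp upstream, and T19B4.8 had 314 (rank 41), 222 (rank 48) and 99.3 (rank 36), with the summit 66 bp upstream. All 3 ranked in the first 70 of both replicates. Also among the 25 strongest were the free-standing genes Y23H5B.10 (rank 60), C41C4.11 (72), F32E10.10 (75), ZK265.10 (107), H09I01.2 (109), Y75B12B.12 (135) and Y53F4B.47 (145). C41C4.11, Y75B12B.12 and Y53F4B.47 lay in a protein-coding promoter as well. Free-standing means outside protein-coding genes only. T19B4.8 and Y23H5B.10, for example, overlap an exon of a gene of another biotype. With hosts of other biotypes counted, 12.8% of free-standing genes had an IDR peak, against 16.1% without them.

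The strongest exon-overlapping genes beside C51F7.4 were T02E1.9, which partly overlaps the end of spe-12, a gene of sperm activation on the opposite strand, and F39B2.14 within tmem-107, a gene of the ciliary transition zone. T02E1.9 had 317 in the pooled list (rank 40), 227 in replicate 1 (rank 44) and 87.4 in replicate 2 (rank 57), with the summit 5 bp upstream. F39B2.14 had 282 (rank 68), 225 (rank 46) and 51.8 (rank 513), and its summit, 116 bp upstream, was the farthest upstream of the 50 and also lay in the promoters of tmem-107 and rps-26. Over the 25 strongest peaks, 24 were among the 575 strongest of both replicates, and 20 had the summit within 100 bp upstream.

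The place of intronic snoRNA genes was measured from the 5′ end of the host gene. For the 16 host-strand intronic genes with an IDR peak, the snoRNA 5′ end was at a median of 3119 bp from the host 5′ end (range 75 to 9440), and 1 of the 16 was within 500 bp. For the 126 such genes without one, the median was 1497.5 bp and 28 were within 500 bp. Measured to the nearest 5′ end of any host transcript, the medians were 1446.5 bp with an IDR peak and 1099 bp without, and 4 of 16 and 41 of 126 were within 500 bp. The host-strand gene within 500 bp was F25H2.14 in tct-1, at 75 bp from the gene's 5′ end, whose peak ranked 548 (named after its values were seen). The 6 opposite-strand genes with an IDR peak were at a median of 865 bp (277 to 2911), with 2 within 500 bp. The 21 without one were at a median of 2086 bp, with 2 within 500 bp, so the order of the medians in bp was opposite to that on the host strand. Median host lengths of these opposite-strand genes were 3216 bp with an IDR peak and 7288 bp without, and median places 26.4% and 34.3% along the host. For host-strand genes the lengths were 4468 and 4543 bp and the places 74.5% and 44.4%. The part of host length was not tested.

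**Figure D5:**
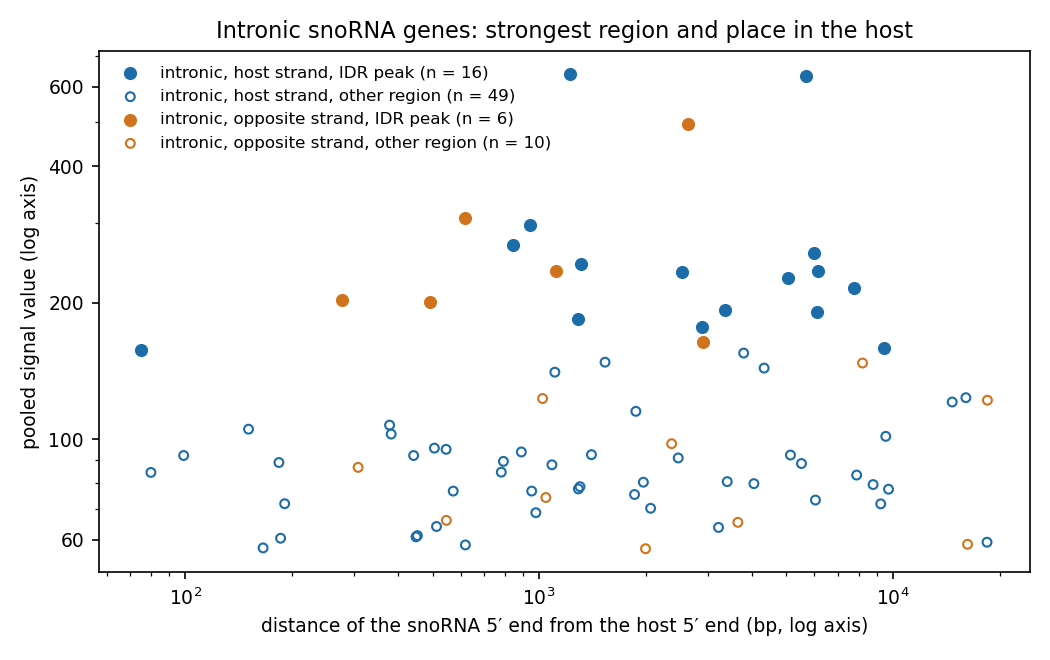
Distance of intronic snoRNA genes from the host 5′ end (x, bp, log axis) against the pooled signal value of their strongest region (y, log axis), for genes with an IDR peak (filled) and with another pooled region (open), on the host strand or the opposite strand. The filled points of host-strand genes run from 75 to 9440 bp, with 1 of 16 under 500 bp.

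Of 149 intronic host genes, 22 had an IDR peak at a snoRNA gene. An IDR summit lay within 250 bp of the host's own 5′ end at 6 of the 149, against 0.726% of protein-coding 5′ ends (145 of 19973). Both were found at 1 host, which was tct-1. Counts this small do not show whether peaks at the snoRNA gene and at the host 5′ end occur together, which was not tested. Of the hosts, 16 held several intronic snoRNA genes, 36 in all, of which 1 had an IDR peak, and 133 held a single intronic one, of which 21 had an IDR peak. Exon-overlapping snoRNA genes are outside this count, such as C51F7.4 in frm-7. The host with most was nol-56, which encodes a core protein of box C/D snoRNA particles and held 4 intronic snoRNA genes with ACA tails. K07C5.18 was the one with a region, at pooled rank 9815 and a signal value of 70.3, and K07C5.10, K07C5.11 and K07C5.12 had none.

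The share of genes with an IDR peak differed more by gene length than by position. The median annotated length was 83 bases for the 50 genes with an IDR peak and 132.5 for the 296 without. An IDR peak was found at 25 of 56 genes of up to 80 bases (44.6%, exact interval 31.3 to 58.5), 5 of 39 of 81 to 100 bases (12.8%), 15 of 127 of 101 to 140 bases (11.8%) and 5 of 124 longer genes (4.03%, 1.32 to 9.16). Among the 575 strongest regions, the counts in the same order were 24, 5, 13 and 5 in replicate 1 and 20, 1, 13 and 6 in replicate 2. The length classes were set after the values were seen.

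Short genes had high shares in 3 position classes: 12 of 20 free-standing, 5 of 9 opposite-strand intronic and 2 of 2 exon-overlapping genes of up to 80 bases had an IDR peak, and on the host strand 6 of 25 did. The longer genes had 8 of 104, 1 of 18, 6 of 51 and 10 of 117 in the same order. The upstream letters moved with length, since 19 of the 25 short genes with an IDR peak had one of the patterns. With A and B box letters, 7 of 7 genes of up to 80 bases and 3 of 6 longer genes had an IDR peak, and with none of the patterns it was 6 of 28 and 14 of 248. How far length and letters each account for the peaks was not tested.

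Features of the RNA itself sorted the genes less clearly. A box C word near the 5′ end with a box D word near the 3′ end was found in 15 genes, of which 5 had an IDR peak (33.3%, exact interval 11.8 to 61.6). An ACA tail was found in 75 genes, of which 13 had one (17.3%, 9.57 to 27.8), and 32 of the 256 genes with neither had one (12.5%, 8.71 to 17.2). The intervals overlap, a difference between these groups was not tested, and exact words miss boxes that differ from them by a base.

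By chromosome, an IDR peak was found at 15 of 55 snoRNA genes on V (27.3%, exact interval 16.1 to 41.0), 11 of 71 on II, 10 of 74 on I, 8 of 59 on IV, 5 of 54 on III and 1 of 33 on X (3.03%, 0.0767 to 15.8). On X it was C53B7.8, named after its values were seen. A pooled region was found at 56.4% of snoRNA genes on V, 46.5% on II, 50% on I, 47.5% on IV, 42.6% on III and 21.2% on X. Shares of all genes or all IDR peaks by chromosome were not counted, so these differences cannot be called particular to snoRNA genes.

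Close to the limits, the weakest IDR peaks at snoRNA genes were the second peak of C08D8.3 (rank 557, signal value 156) and that of M7.15 (rank 573, 155.0). The strongest regions just outside the IDR list were at Y38F2AR.14 (rank 579, 154.8) and F29G9.19 (rank 599, 152.8), a gene that also had a stronger region in the list. At the edge of the window, C02F5.15 and R166.10 had summits 246 and 248 bp away and counted, while further summits 253 bp from K07C5.18 and 262 bp from C34E11.20 did not. Between 251 and 500 bp, IDR peaks stood near C06A1.9 (rank 74, 489 bp), W01H2.11 (rank 313, 493 bp) and JC8.15 (rank 464, 349 bp).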

How the data were processed

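ChIP-seq was made on 1 group of 2 biological replicates. The authors deposited peak lists for each replicate and the pool, and an IDR list. In the deposited lists the authors gave each region a signal value, whose normalization is not stated, and the −log10 of its q-value. For the aligner, the peak caller and the IDR threshold, names and settings were not given in the sources used here. Read depth is unknown, and control data and the ce10 lists were not used here. Candidate lists hold background regions by design.

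Summits were set against Ensembl release 115 genes of WBcel235. A snoRNA gene counts as intronic where the span of a protein-coding host holds all of it and no host exon overlaps it. Any overlap with an exon of a protein-coding gene, also at its end, makes it exon-overlapping. Shares carry exact Clopper-Pearson 95% intervals over genes, and no significance tests were run. The code that counts summits near genes was checked against a direct count on simulated positions. Counting was done in Python 3.11.15 with pandas 2.3.3 and numpy 2.4.6, intervals with scipy 1.17.1, and plots with matplotlib 3.10.9. Box words were TGATGA in the first 25 bases with CTGA in the last 20, and ACA at 2 to 4 bases before the 3′ end.

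Members, lists and motifs were chosen with earlier results of these data known. Genes named are those at the 25 strongest snoRNA regions, the 3 strongest of each position class, the host with most snoRNA genes and those next to a limit. Any other gene named in the text is marked as chosen with its values known, and the map of letters names every gene with an IDR peak and a pattern.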

Additional observations from a re-analysis of the deposited data

How the results depend on the processing

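Of 64 alternatives, 53 left the value within the spread or 1.5 times of the count, 11 moved it and 0 reversed it. With a reach of 100 bp the median pooled rank was 1478 and 36.2% of the regions at snoRNA genes were IDR peaks. With the summit inside the gene, 41 genes had a pooled region, there were 41 regions and 10 IDR peaks, and 2.89% of the genes had one. With the IDR list limited to peaks at or above its median signal value, 21.1% of the snoRNA regions were in it. In the list of 1 replicate alone, 28.3% of the snoRNA regions of replicate 1 and 20.7% of those of replicate 2 were among its own 575 strongest. At the 50 IDR peaks, which were still chosen from both replicates, the median summit position was −33.5 bp in replicate 1 and −21.5 bp in replicate 2. The medians given above for each replicate were over its own strongest regions. A replicate summit within 100 bp of the pooled one was found in both replicates for 90% of the 50 peaks, and 60% were among the strongest 575 of both. The causes of these moves were not tested. No paired analysis was possible because there is 1 group. Signal values carry no error, the replicates number 2, the IDR list is a threshold on the pooled signal, and mapping at repeated or near-identical snoRNA copies was not examined here. A summit within 250 bp of a gene does not show which gene the protein acts on.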
